A study of Mus musculus with 21 samples.

Results

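Tumour necrosis factor signalling was examined through 10 genes, chosen by name with earlier results of these data known. Counts of these genes set against all genes tested are therefore descriptive. Tnf encodes the ligand, Tnfrsf1a and Tnfrsf1b its receptors, and Adam17 the protease that releases ligand and receptors from the cell surface. The products of the other 6 join the complexes that form on the receptors inside the cell (Tradd, Traf1, Traf2, Ripk1, Birc2 and Birc3). All 10 were among the 23250 genes of the expression table, and all 10 passed the filter on low counts. The series asked how a soluble mannose receptor acts on macrophages that lack the receptor of their own. Bone marrow of mice on a C57BL/6J background was grown for 7 days with GM-CSF, a growth factor from which macrophage-like cells arise, and by the series' design every group consisted of such mannose-receptor-deficient cells. Cells were left untreated (0 h), or were given for 4, 12 or 24 h either FcMR, the extracellular region of the mannose receptor fused to the Fc region of human IgG1, or an isotype control protein. Each of the 7 groups holds 3 libraries, 21 in all. The sex and age of the mice are not given in the sources used here, and nothing says that the 3 libraries of a group came from separate mice or cultures, so p-values measure the spread between these libraries, which may be technical.

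TNF is made by macrophages as a membrane protein that acts on neighbouring cells or, once cut off by the protease ADAM17 (TACE), at a distance. Its receptor TNFR1 (Tnfrsf1a) carries a death domain through which it recruits TRADD and the kinase RIPK1, and then TRAF2 with the ubiquitin ligases cIAP1 (Birc2) and cIAP2 (Birc3). This complex activates NF-κB and MAP kinases and, when its ubiquitin chains are removed, can give way to cell death by caspase-8 or by RIPK3 and MLKL. TNFR2 (Tnfrsf1b) has no death domain, binds TRAF2 directly and responds best to membrane-bound TNF. TRAF1 and cIAP2 are known as products of NF-κB target genes that act back on the same complex.

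Libraries held 5532225 to 66729533 estimated counts, and 3 counts, taken as the limit of detection, correspond to 0.045 to 0.542 CPM, the counts scaled to library size. No molecular identifiers were used, so that limit covers only the error of counting. Mrc1, the gene of the mannose receptor, had 0 to 11 counts in every library, at most 0.589 CPM, and was not tested. Macrophage genes were abundant throughout: the 9 markers summed to 21059 to 36282 CPM, a sum that is mostly Lyz2, and at 24 h the sum was lower with FcMR (26249 to 28039) than with isotype (32115 to 36282). At that time 7 of the 9 had the lower mean with FcMR, whereas Adgre1, for F4/80, stood at 1507 against 837 CPM and Csf1r at 976 against 932 CPM. The 5 conventional dendritic cell markers, carried almost wholly by Ccr7, summed to 452 to 570 CPM with FcMR against 295 to 434 with isotype at 4 h. At 12 h the sums of the arms overlapped, at 594 to 756 CPM with FcMR against 540 to 614 with isotype. At 24 h they were 701 to 755 CPM against 410 to 474. Zbtb46, at 46.6 CPM in untreated cells, was at 41.06 CPM with FcMR against 41.16 with isotype at 4 h. It was at 29.6 against 22.8 at 12 h and at 28.5 against 17.7 at 24 h. Flt3, at 2.67 CPM in untreated cells, was at 19.4 against 28.8 at 12 h and at 28.2 against 26.5 at 24 h. The remaining markers of that type were low with treatment: Xcr1 stayed at or under 3.46 CPM and Cd209a under 1 CPM in the mean of every treated group. In untreated cells Cd209a was at 15.8 CPM. The sum of the 8 neutrophil and granulocyte precursor markers, mostly S100a8 and S100a9, fell with time in both arms. Untreated cells had 1148 to 1341 CPM, and at 24 h isotype had 159 to 187 and FcMR 195 to 210. At that time S100a8 (137 against 85.4 CPM) and Camp (2.995 against 2.087 CPM) had the higher mean with FcMR. The other markers of this list had the lower mean with FcMR, S100a9 among them at 60.6 against 69.3 CPM. Of the T and NK cell markers, Cd3e was at most 0.0899 CPM in any group mean, whereas Cd8a reached 2.255 and Klrb1c 1.879 CPM. The plasmacytoid dendritic cell markers, mostly Bst2, summed to 445 to 487 CPM with FcMR against 292 to 314 with isotype at 24 h. At that time Bst2 had the higher mean with FcMR, and Tcf4 (20.43 against 24.55 CPM) and Siglech the lower. At 4 and 12 h the sums of that list overlapped. The mast cell and basophil markers summed to at most 31.75 CPM in any library. The part of these other cell types in the results below was not tested, and in bulk RNA fewer cells of a type and less RNA per cell cannot be told apart.

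Beside the isotype control, 4 of the 10 genes were higher with FcMR at 4 h, 4 at 12 h and 5 at 24 h, and none was called lower. The threshold for a call was an adjusted p (Benjamini-Hochberg) under 0.05 in edgeR's quasi-likelihood test of 13468 genes, of which 8.62%, 8.61% and 11.4% were called higher and 9.13%, 7.49% and 9.44% lower at the 3 times. Tnf, Tnfrsf1b, Traf1 and Birc3 were called at every time, Adam17 at 24 h alone, and Tnfrsf1a, Tradd, Traf2, Ripk1 and Birc2 at no time. All 3 FcMR libraries stood above all 3 isotype libraries for 6, 4 and 6 of the 10 genes, against 13.5%, 17.5% and 17.8% of all genes tested. They stood below for 0, 0 and 2 (Tnfrsf1a and Tradd), against 16.2%, 17.9% and 16.6%. The median log2 difference of the 10 genes was 0.41, 0.18 and 0.48, where the median of all genes tested was −0.07, −0.02 and 0.01. For the counts of 0 lower, an unadjusted p under 0.05 was reached by 0, 0 and 1 gene (Tnfrsf1a at 24 h), and DESeq2 called 0 lower at each time. DESeq2 called 5, 4 and 6 of the 10 higher. A correction for GC content, described below with Tnfrsf1a, moved the split of all genes called at 4 h from 1161 higher and 1229 lower to 2307 higher and 1422 lower.

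**Figure D1:**
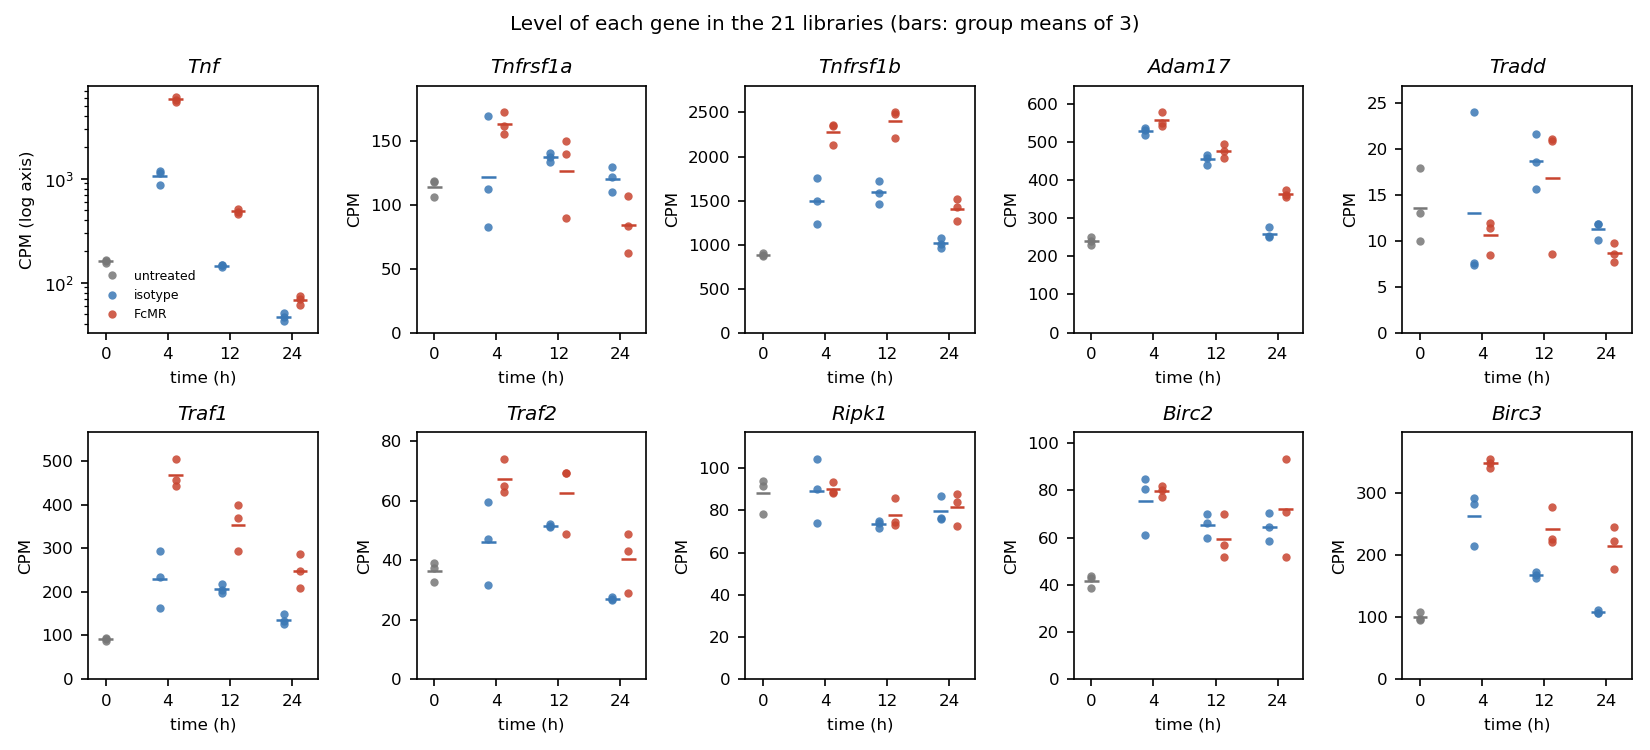
Level of each of the 10 genes in all 21 libraries, in CPM after TMM scaling, against time in hours. Points are libraries and bars are means of 3, grey for untreated, blue for isotype and red for FcMR, and the Tnf axis is logarithmic. The red points of Tnf, Tnfrsf1b, Traf1 and Birc3 lie above the blue ones at 4, 12 and 24 h, those of Adam17 lie clear of the blue ones at 4 and 24 h, by far the more at 24 h, and those of Ripk1 and Birc2 mix with the blue ones.

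The 4 genes called at every time are shown by the 250 bases before their start, so that the letters upstream of the genes that were higher with FcMR throughout can be compared. Sequences are those of RefSeq on GRCm38.p6, all from the minus strand, at chr17:35202008-35202257 for Tnf, chr4:145246871-145247120 for Tnfrsf1b, chr2:34961773-34962022 for Traf1 and chr9:7873171-7873420 for Birc3. Capitals mark matches on either strand to GGGNNNNNCC, the outer letters of the sites that NF-κB dimers are known to bind.
Tnf: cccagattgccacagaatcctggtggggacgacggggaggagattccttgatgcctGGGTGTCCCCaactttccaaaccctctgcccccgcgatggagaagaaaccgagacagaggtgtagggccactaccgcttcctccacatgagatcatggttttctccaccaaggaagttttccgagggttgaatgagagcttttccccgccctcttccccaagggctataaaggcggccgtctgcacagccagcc
Tnfrsf1b: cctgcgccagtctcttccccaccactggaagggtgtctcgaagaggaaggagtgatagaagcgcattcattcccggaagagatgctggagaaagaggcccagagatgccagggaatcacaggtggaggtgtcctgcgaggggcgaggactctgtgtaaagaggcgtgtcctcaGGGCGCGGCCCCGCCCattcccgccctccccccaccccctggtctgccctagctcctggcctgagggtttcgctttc
Traf1: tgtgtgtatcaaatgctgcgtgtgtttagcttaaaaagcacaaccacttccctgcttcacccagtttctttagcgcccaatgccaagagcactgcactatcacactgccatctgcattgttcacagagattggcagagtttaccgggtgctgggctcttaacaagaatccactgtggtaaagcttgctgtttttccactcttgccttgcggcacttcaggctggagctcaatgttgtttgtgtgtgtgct
Birc3: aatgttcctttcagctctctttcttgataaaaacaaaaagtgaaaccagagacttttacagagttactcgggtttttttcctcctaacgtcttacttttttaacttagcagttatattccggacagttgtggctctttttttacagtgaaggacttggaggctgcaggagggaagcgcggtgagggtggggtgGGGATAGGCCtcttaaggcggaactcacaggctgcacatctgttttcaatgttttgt
The match of Tnf, GGGTGTCCCC, begins 194 bases before the start and reads as a match on both strands. That of Birc3, GGGATAGGCC, begins 57 bases before the start. Tnfrsf1b holds 3 overlapping matches, the first at 77 bases, and Traf1 none. Such matches are common: 45.8% of the 32851 promoter windows of the table hold one, as do 7 of the 11 windows that 9 of the 10 genes have in the table, among them those of Tnfrsf1a and Traf2. The stricter NF-κB consensus, whose sites are all contained in GGGNNNNNCC, is found in 3.90% of all windows and in 0 of these 11, and the AP-1 motif TGANTCA in 6.75% and again in 0. A TATAAA box was found in 1 of the 11, that of Tnf, beginning 29 bases before the start, and in 12.4% of all windows. These are letters in a window and not sites shown to be bound.

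Tnf (ENSMUSG00000024401.14, chromosome 17, 35199381 to 35202007, minus strand, GRCm38), the ligand, had the widest range of the 10 genes: its highest group mean was 125-fold its lowest. At 4 h the isotype libraries stood at 1135, 862 and 1174 CPM and the FcMR libraries at 5762, 6087 and 5522 CPM. Untreated cells stood at 162, 154 and 165 CPM. The lowest FcMR library was thus far above the highest isotype library, which was itself above every untreated one. The fitted difference between FcMR and isotype was 2.45 on the log2 scale (SE 0.11), a 5.48-fold level, with an edgeR adjusted p of 2.52e-10.

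At 12 h Tnf was at 141, 147 and 149 CPM with isotype and at 482, 511 and 462 CPM with FcMR. At 24 h it was at 42.4, 46.3 and 50.6 CPM with isotype and at 60.3, 69.3 and 73.8 CPM with FcMR. The arms did not overlap at either time, but all 6 libraries of 24 h lay below the 3 untreated libraries, those with FcMR included. The difference between the arms was 1.74 (SE 0.11, edgeR adjusted p 6.77e-09) at 12 h and 0.55 (SE 0.11, edgeR adjusted p 0.00107) at 24 h. It therefore shrank by 1.91 on the log2 scale from 4 to 24 h, and the joint edgeR test of whether the FcMR effect changed over the 3 times gave an adjusted p of 1.14e-06. Of all genes tested, 11% were called in that joint test, and of the 10 genes here 2 were, Tnf and Adam17.

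The rise of Tnf at 4 h was not confined to the FcMR arm. Isotype-treated cells of 4 h exceeded untreated cells by 2.72 (SE 0.11, edgeR adjusted p 3.21e-12), while at 12 h they differed from them by −0.14 (SE 0.10, edgeR adjusted p 0.309). By 24 h Tnf was lower with isotype than in untreated cells by −1.79 (SE 0.11, edgeR adjusted p 5.51e-10). No untreated cells were kept to 4, 12 or 24 h, so the control protein and the time in culture cannot be told apart in these comparisons. Both the FcMR and the untreated comparison of a time use the same 3 isotype libraries.

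Across the 21 libraries, the genes whose log2 CPM followed that of Tnf most closely, among 8810 genes averaging 3 or more on the log2 CPM scale, were Cxcl10 (Pearson r = 0.989), Tnfsf15 (0.986), Ccl3 (0.986), Ptx3 (0.984) and Cd69 (0.979). These values describe a likeness over libraries that share groups, depth and base composition. Between FcMR and isotype, Ccl3, a chemokine gene, had fitted log2 differences of 2.87, 1.68 and 0.05 at 4, 12 and 24 h. Those of Cxcl10, another chemokine gene, were 2.15, 1.91 and 1.70, and those of the C-type lectin gene Cd69 1.78, 1.64 and 1.72. The closest of the 9 other genes here was Birc3, at rank 722 with r = 0.761.

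The neighbours of Tnf on chromosome 17 are the lymphotoxin genes Lta (35203165 to 35205351) and Ltb (35194439 to 35196320). Lta, which encodes a soluble ligand of the same receptors, was at 4.25 ± 0.80 CPM (SD, n = 3) with isotype and 11.6 ± 3.3 with FcMR at 4 h, and differed by 1.45 at 4 h and 1.69 at 12 h (edgeR adjusted p 0.000474 and 0.000102). At 24 h the isotype libraries read 0.107 to 0.294 CPM, none above the limit of detection of 3 counts (0.314 to 0.405 CPM on unscaled library totals). The FcMR libraries read 0.882 to 1.71 CPM. The gene was called there too (edgeR adjusted p 0.000249), but no fold is given against a group with no library above that limit. Ltb, whose product anchors lymphotoxin in the membrane, differed by −0.31, −0.64 and 0.44 (edgeR adjusted p 0.735, 0.516 and 0.762). A microRNA gene, Mir6974, overlaps Lta on the same strand.

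The receptor genes behaved differently from each other. Tnfrsf1b (ENSMUSG00000028599.10, chromosome 4, 145213463 to 145246870), for TNFR2, was at 1489, 1230.4 and 1759 CPM with isotype and at 2129.9, 2348 and 2354 CPM with FcMR at 4 h. At 12 h these were 1464, 1589.6 and 1724 against 2210.0, 2483 and 2501 CPM, and at 24 h 1011, 959 and 1073 against 1426, 1267 and 1513 CPM. At each time the lowest FcMR library was above the highest isotype library. The log2 differences were 0.61 (SE 0.11), 0.59 (SE 0.11) and 0.47 (SE 0.11), or 1.53-, 1.51- and 1.38-fold, with edgeR adjusted p of 0.000739, 0.000808 and 0.00438. Fitted on the 6 libraries of 4 h alone, the edgeR adjusted p at that time was 0.0508, the highest of 16 alternatives, which began at 3.00e-09. The 3 differences were close in size, and the joint test of a change over time gave an edgeR adjusted p of 0.821.

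Tnfrsf1b was also higher with isotype than in untreated cells (877, 865 and 907 CPM), by 0.76 (SE 0.11) at 4 h and 0.85 (SE 0.11) at 12 h, with edgeR adjusted p of 2.85e-05 and 6.03e-06. At 24 h the 3 isotype libraries still lay above the untreated ones, but the difference of 0.20 (SE 0.11) had an edgeR adjusted p of 0.153. Its highest group mean, 2398 CPM with FcMR at 12 h, was 2.72-fold that of untreated cells, and its ranges with FcMR at 4 and 12 h overlapped.

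Tnfrsf1a (ENSMUSG00000030341.17, chromosome 6, 125349362 to 125362484), for TNFR1, stayed within 62.7 to 173 CPM. At 4 h it was at 112, 83.2 and 169.6 CPM with isotype and at 162, 173 and 156 CPM with FcMR. At 12 h it was at 134, 138 and 141 CPM with isotype and at 90.0, 139.8 and 150.4 CPM with FcMR. At 24 h it was at 110.2, 122 and 130.0 CPM with isotype and at 83.8, 62.7 and 107 CPM with FcMR. The arms overlapped at 4 and 12 h and did not at 24 h, when every FcMR library was the lower. The log2 differences were 0.42 (SE 0.22), −0.12 (SE 0.22) and −0.52 (SE 0.22), with edgeR adjusted p of 0.211, 0.820 and 0.117. Intervals of 2 SE ran from −0.02 to 0.86, from −0.56 to 0.32 and from −0.96 to −0.07, so these data do not show that the gene was unchanged. Untreated cells were at 118, 107 and 119 CPM, and the isotype arm was called different from them at no time (edgeR adjusted p 0.776, 0.364 and 0.807).

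The spread of Tnfrsf1a followed a property of the libraries. A GC tilt was taken per library, as the average log2 level in the tenth of genes richest in transcript GC less that in the tenth poorest in it, relative to all libraries. It ran from −1.60 to 0.826 and differed within groups: −0.841, −1.60 and 0.649 in the isotype libraries of 4 h, −0.751, 0.719 and 0.807 in the FcMR libraries of 12 h, and −0.358, −1.29 and 0.411 in those of 24 h. Transcripts of Tnfrsf1a average 56.9% GC, against a median of 50.2% over genes tested, and in 7 of 7 groups the library with the lowest tilt had the lowest Tnfrsf1a level. Once a smooth curve over GC content had been removed from each library, the within-group SD of Tnfrsf1a on the log2 scale went from 0.294 to 0.065. It became smaller for 9 of the 10 genes and larger for Adam17, the most GC-poor of them at 44.5%, where it went from 0.053 to 0.112.

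With that GC correction, Tnfrsf1a passed the threshold at 4 h, where FcMR libraries were higher by 0.40 (edgeR adjusted p 5.24e-05). It also passed at 24 h, where they were lower, at −0.35 (edgeR adjusted p 0.000168). The joint test then called the change over time, at −0.75 from 4 to 24 h with an edgeR adjusted p of 1.63e-05 against 0.135 without the correction and a range of 1.63e-05 to 0.249 over 27 alternatives. Over the 16 alternatives the adjusted p ranged from 5.24e-05 to 0.519 at 4 h and from 0.000168 to 0.395 at 24 h, and 4 alternatives called each difference. Leaving out isotype replicate 3 of 4 h gave 0.75 at 4 h (edgeR adjusted p 0.0169), and leaving out FcMR replicate 3 of 24 h gave −0.72 at 24 h (edgeR adjusted p 0.0323).

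**Figure D2:**
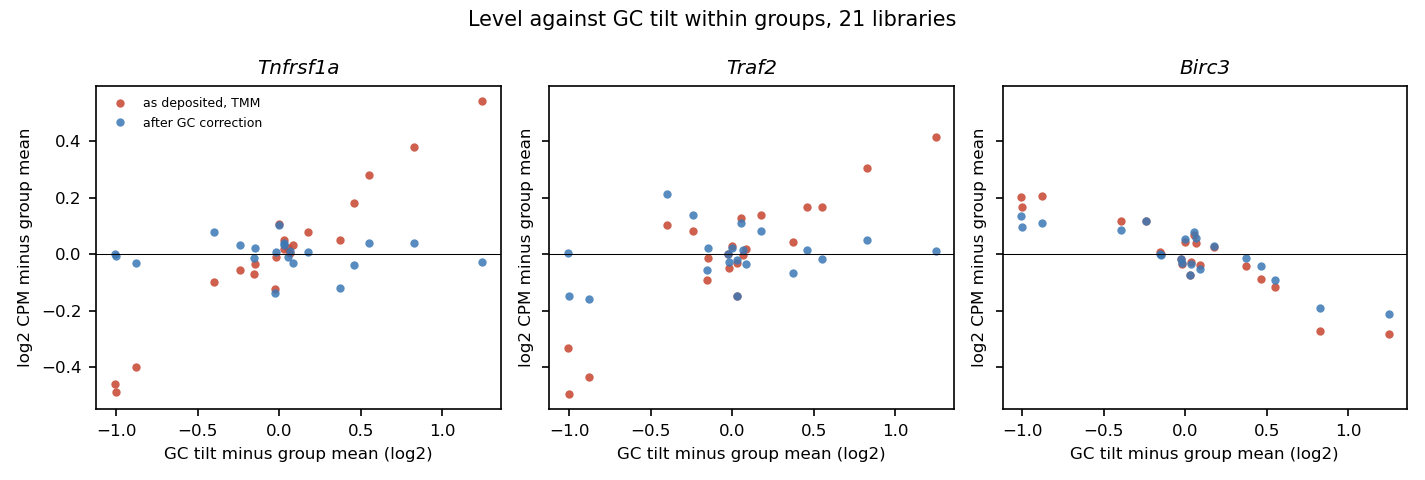
Level of Tnfrsf1a, Traf2 and Birc3 in each of 21 libraries against the GC tilt of the library, both as log2 differences from the mean of the library's group of 3. Red points are TMM-scaled levels and blue points the same after the GC correction. The red points of Tnfrsf1a and Traf2 rise with the tilt and those of Birc3 fall, and the blue points of Tnfrsf1a lie closest to the zero line, with a within-group SD of 0.065.

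Adam17 (ENSMUSG00000052593.15, chromosome 12, 21323509 to 21373632), the sheddase, separated the arms late. At 4 h it was at 531, 537 and 519.6 CPM with isotype and at 551, 578 and 543 CPM with FcMR. At 12 h it was at 458, 439.9 and 466 CPM against 496, 458 and 477 CPM, and at 24 h at 253, 249.9 and 276 CPM against 356, 374 and 361 CPM. The arms lay close together at 4 h, where they just did not overlap, overlapped at 12 h, and stood wide apart at 24 h. The log2 differences were 0.07 (SE 0.062), 0.07 (SE 0.062) and 0.49 (SE 0.062), with edgeR adjusted p of 0.468, 0.571 and 1.48e-05. With the replicate block and GC correction together, the 4 h difference was 0.22 and was called (edgeR adjusted p 0.0483), in 1 of 16 alternatives. The effect on Adam17 grew by 0.41 from 4 to 24 h, and the joint test gave an edgeR adjusted p of 0.00483. That call was lost with no expression filter (0.31, edgeR adjusted p 0.117) and with the GC correction (0.20, edgeR adjusted p 0.0558), and held in 25 of 27 alternatives, over which the adjusted p ranged from 8.41e-05 to 0.117.

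Against untreated cells, at 229.5, 251 and 239 CPM, Adam17 rose with isotype by 1.14 (SE 0.063) at 4 h and 0.92 (SE 0.063) at 12 h, with edgeR adjusted p of 1.50e-10 and 1.95e-09. At 24 h the isotype libraries overlapped the untreated ones, 2 of the 3 lying above them, at 0.11 (SE 0.062, edgeR adjusted p 0.154). All 3 FcMR libraries of 24 h lay above the untreated range and below every isotype library of 4 and 12 h. Adam17 overlaps Iah1 and Gm22766 on the opposite strand, and no source used here says whether reads were counted by strand.

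Of the other genes that govern shedding, 6 of 6 listed were tested. Timp1, for an inhibitor of metalloproteases, was higher with FcMR at every time, by 0.86, 0.83 and 0.57 (edgeR adjusted p 0.000128, 0.000116 and 0.00307). Its level went from 19.7 ± 1.4 CPM with isotype to 35.9 ± 5.4 with FcMR at 4 h. Adam10, a related sheddase, was lower at 4 h by −0.39 (edgeR adjusted p 0.0481), but it was not called without any one of 5 of the 6 libraries of that time (edgeR adjusted p 0.111 to 0.344) or by DESeq2 (adjusted p 0.117). Rhbdf1, Rhbdf2, Frmd8 and Timp3 were called at no time, and the iRhom gene Rhbdf2 differed by 0.73, 0.35 and 0.21 (edgeR adjusted p 0.294, 0.708 and 0.821).

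The adaptor genes differed in level and in response. Traf1 (ENSMUSG00000026875.14, chromosome 2, 34941750 to 34961772) was at 233, 163 and 292 CPM with isotype and at 457, 504.5 and 443 CPM with FcMR at 4 h. At 12 h it was at 204, 218 and 198 CPM against 293, 399.7 and 369 CPM, and at 24 h at 125, 149 and 133 CPM against 248, 209 and 286 CPM. The arms did not overlap at any of the 3 times, although the lowest FcMR library of 24 h was below the highest isotype library of 12 h. The log2 differences were 1.03 (SE 0.16), 0.78 (SE 0.16) and 0.87 (SE 0.16), or 2.04-, 1.71- and 1.82-fold, with edgeR adjusted p of 0.000258, 0.00241 and 0.000803. All 16 alternatives called each of the 3. With isotype Traf1 also exceeded untreated cells (95.1, 92.1 and 88.0 CPM) at every time, by 1.32 (SE 0.17), 1.17 (SE 0.17) and 0.57 (SE 0.16), with edgeR adjusted p of 5.72e-06, 1.69e-05 and 0.00972.

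Traf2 (ENSMUSG00000026942.13, chromosome 2, 25517982 to 25546940), the adaptor that brings the cIAP ligases to the receptors, was lower in level and less clear in its response. At 4 h it was at 47.2, 31.6 and 59.6 CPM with isotype and at 64.9, 74.1 and 62.8 CPM with FcMR. At 12 h it was at 51.1, 51.6 and 52.1 CPM against 49.0, 69.3 and 69.3 CPM, and at 24 h at 27.0, 26.5 and 27.5 CPM against 43.1, 29.1 and 48.8 CPM. Every FcMR library was above every isotype library at 4 and 24 h, and 1 was below all of them at 12 h. The log2 differences of 0.54 (SE 0.20), 0.28 (SE 0.19) and 0.57 (SE 0.20) missed the threshold, with edgeR adjusted p of 0.0685, 0.423 and 0.0533. DESeq2 called the 1st and the last, with adjusted p of 0.0192 and 0.0349.

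Transcripts of Traf2 average 55.4% GC, and the FcMR libraries lowest in Traf2 at 12 h (replicate 1) and 24 h (replicate 2) were also those with the lowest tilts of their groups. With the GC correction all 3 differences were called, at 0.52, 0.41 and 0.68, with edgeR adjusted p of 0.000209, 0.00120 and 1.13e-05. Over 16 alternatives the adjusted p ranged from 0.000209 to 0.228, from 0.00120 to 0.642 and from 1.13e-05 to 0.165, and 7, 2 and 5 of them called the difference. Traf2 was higher with isotype than in untreated cells (37.4, 39.0 and 32.8 CPM) at 12 h, by 0.50 (SE 0.20, edgeR adjusted p 0.0474), a call that held in 5 of 16 alternatives and was lost without any one of the 6 libraries compared (edgeR adjusted p 0.0681 to 0.152). An unnamed gene model, Gm13433, overlaps Traf2 on the opposite strand.

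Tradd (ENSMUSG00000031887.13, chromosome 8, 105258286 to 105264609), the first adaptor of TNFR1, was the lowest of the 10 genes, at 7.40 to 24.0 CPM over all 21 libraries. Its 3 isotype libraries of 4 h read 7.61, 7.40 and 24.0 CPM, and its 3 FcMR libraries of 12 h 8.59, 20.9 and 21.1 CPM. One library in each of these groups stood more than the rest of the group's spread away, the high one having the highest tilt of its group and the low one the lowest. Tradd transcripts, at 57.4% GC, are the most GC-rich of the 10. The differences with FcMR were −0.32 (SE 0.39), −0.15 (SE 0.37) and −0.39 (SE 0.39), with edgeR adjusted p of 0.644, 0.873 and 0.560, and the interval of 2 SE at 24 h ran from −1.18 to 0.39. Isotype-treated and untreated cells differed by −0.03, 0.47 and −0.26 (edgeR adjusted p 0.968, 0.341 and 0.612). Without isotype library 3 of 4 h and FcMR library 1 of 12 h together, which stand out of title order, Tradd was called at −0.83 at 4 h and 0.51 at 12 h (edgeR adjusted p 0.00846 and 0.0292, the lowest of 16 alternatives, which reached 0.958 and 0.659). At 24 h all 3 FcMR libraries (7.64 to 9.75 CPM) were below the 3 isotype libraries (10.1 to 11.9 CPM).

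Ripk1 (ENSMUSG00000021408.15, chromosome 13, 34002363 to 34037147), the kinase on which survival and death signals from TNFR1 meet, was the steadiest. Its 21 libraries read 71.7 to 104 CPM, and the arms overlapped at every time. FcMR differed from isotype by 0.01 (SE 0.11), 0.08 (SE 0.11) and 0.03 (SE 0.11), with edgeR adjusted p of 0.964, 0.733 and 0.894. The intervals of 2 SE lay within −0.21 to 0.31 at all 3 times, so differences of the size seen for Traf1 at 4 h lie outside them. Ripk1 shares bases with Gm17084 on its own strand and with Gm17083 and Serpinb6a on the other.

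Birc2 and Birc3 are neighbours on chromosome 9 (7818227 to 7837064 and 7848699 to 7873186, ENSMUSG00000057367.12 and ENSMUSG00000032000.17), and encode the closely related ligases cIAP1 and cIAP2. Birc3 was at 282.5, 291.5 and 214 CPM with isotype and at 339.7, 354 and 348 CPM with FcMR at 4 h. At 12 h it was at 167, 172 and 163 CPM against 276, 225.5 and 221 CPM, and at 24 h at 107, 106 and 111 CPM against 223, 245 and 176.5 CPM. The arms did not overlap at any time and lay farthest apart at 24 h, when isotype cells had come back to the untreated level (96.1, 107 and 94.3 CPM). The log2 differences were 0.40 (SE 0.12), 0.53 (SE 0.12) and 0.99 (SE 0.12), or 1.32-, 1.44- and 1.99-fold, with edgeR adjusted p of 0.0285, 0.00518 and 1.06e-05. The joint test of a change over time gave an edgeR adjusted p of 0.0641, and 7 of 27 alternatives called it, with a range of 0.00326 to 0.239.

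The 4 h call of Birc3 lay near the threshold. Without FcMR library 1, 2 or 3 the difference was as large, at 0.42, 0.39 and 0.45, but not called (edgeR adjusted p 0.0726, 0.110 and 0.0745). The fit of the 6 libraries alone gave 0.40 (edgeR adjusted p 0.139). Without isotype library 3 the difference was smaller, at 0.28 (edgeR adjusted p 0.0968), and the range over 16 alternatives began at 7.29e-05. The calls of 12 and 24 h held in all 16. Birc3 also rose with isotype over untreated cells, by 1.40 (SE 0.12) at 4 h and 0.75 (SE 0.12) at 12 h, with edgeR adjusted p of 8.18e-08 and 8.29e-05, and differed by 0.12 (SE 0.12, edgeR adjusted p 0.458) at 24 h.

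Birc2 ran between 38.8 and 93.4 CPM and showed no called difference between the arms, at 0.08 (SE 0.17), −0.14 (SE 0.17) and 0.17 (SE 0.17), with edgeR adjusted p of 0.820, 0.700 and 0.564. Its FcMR libraries of 24 h read 70.9, 93.4 and 51.9 CPM and spanned the 3 isotype libraries (58.8, 70.3 and 64.5 CPM). The intervals of 2 SE reached 0.41, 0.20 and 0.50 at their upper ends. Isotype-treated cells exceeded untreated cells (38.8, 42.7 and 43.9 CPM) at every time, by 0.85, 0.64 and 0.63 (SE 0.17 each), with edgeR adjusted p of 0.000717, 0.00515 and 0.00616.

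**Figure D3:**
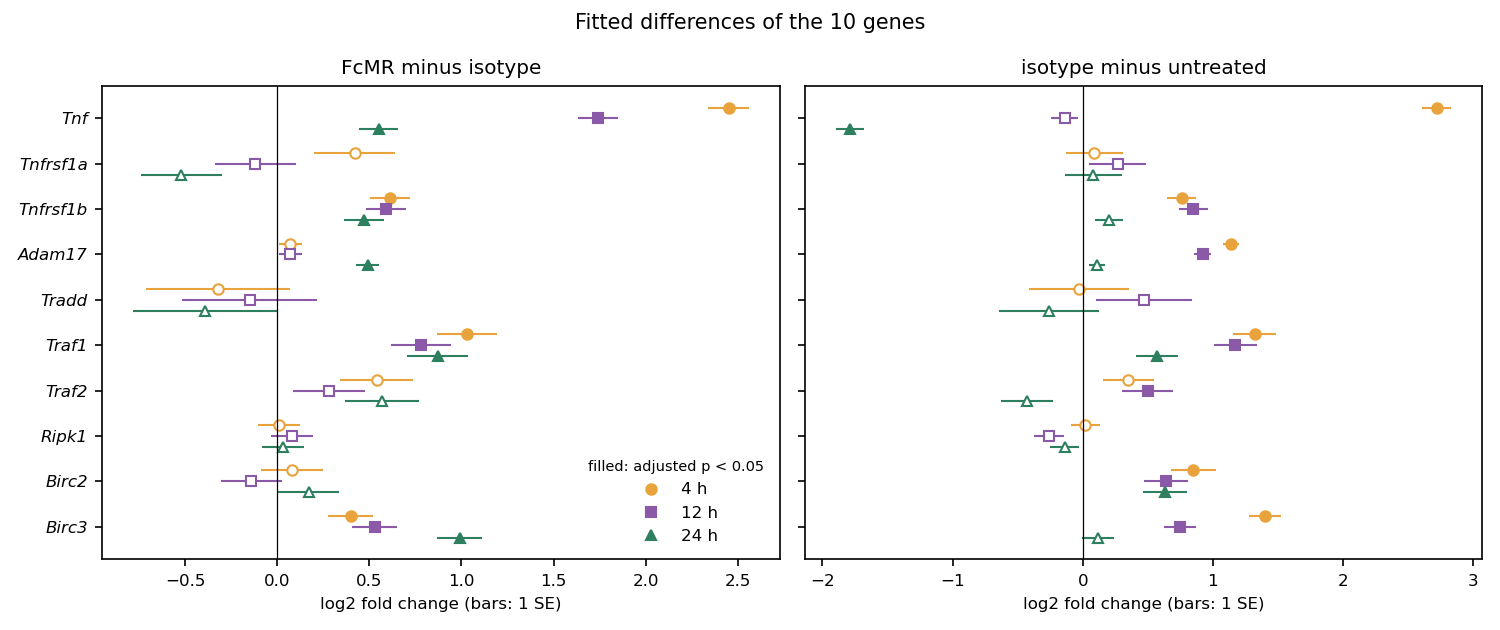
Fitted log2 differences of the 10 genes between FcMR and isotype (left) and between isotype and untreated cells (right), at 4 h (circles), 12 h (squares) and 24 h (triangles), with bars of 1 SE. Filled symbols passed an adjusted p of 0.05. On the left the 3 symbols of Tnf step down from 2.45 to 0.55, those of Birc3 step up from 0.40 to 0.99, and those of Ripk1 sit at 0.

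Counted together, 6 of the 10 genes were called higher with isotype than in untreated cells at 4 h (Tnf, Tnfrsf1b, Adam17, Traf1, Birc2 and Birc3) and 6 at 12 h (the same without Tnf and with Traf2), where 20.4% and 22% of all genes tested were. At 24 h Traf1 and Birc2 were called higher and Tnf lower, where 21.3% of genes were called higher and 20.9% lower. No gene of the 10 was called lower at 4 or 12 h, where 15.2% and 19.6% of all genes were. For those counts of 0, DESeq2 also called 0 and 0, and an unadjusted p under 0.05 was reached by 0 and 1 (Ripk1 at 12 h, −0.26, edgeR adjusted p 0.0721).

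Ratios within a library put the paired genes side by side, on levels per kilobase of the longest coding transcript. In untreated cells Tnfrsf1b stood at 4.36 ± 0.20 times Tnfrsf1a (SD, n = 3), Traf1 at 2.24 ± 0.14 times Traf2 and Birc3 at 2.73 ± 0.23 times Birc2. With isotype the Tnfrsf1b to Tnfrsf1a ratio was 7.23 ± 1.27, 6.54 ± 0.37 and 4.76 ± 0.38 at 4, 12 and 24 h, and with FcMR 7.88 ± 0.58, 11.1 ± 2.4 and 9.65 ± 1.73. The arms overlapped at 4 h and did not at 12 and 24 h. By exact two-sided permutation tests of the log2 ratio the p was 0.5 at 4 h and 0.1 at the later times, 0.1 being the smallest that 3 against 3 libraries can give, so that no ratio here could pass 0.05.

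Traf1 over Traf2 was 4.43 ± 0.13, 3.55 ± 0.18 and 4.46 ± 0.47 with isotype and 6.18 ± 0.12, 5.05 ± 0.30 and 5.56 ± 0.70 with FcMR. Birc3 over Birc2 was 3.98 ± 0.05, 2.94 ± 0.16 and 1.93 ± 0.18 with isotype and 5.0 ± 0.10, 4.66 ± 0.21 and 3.50 ± 0.45 with FcMR. In both pairs the FcMR libraries lay above the isotype libraries at all 3 times (exact permutation p 0.1 each). In the Birc3 pair the ratio of isotype cells fell below that of untreated cells at 24 h, without overlap, while that of FcMR cells remained above it. After the GC correction the arms of the Traf1 pair overlapped at 24 h, and those of the receptor pair no longer overlapped at 4 h. The 9 comparisons of ratios between FcMR and isotype form 1 family, in which the adjusted p would be no smaller than 0.1.

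**Figure D4:**
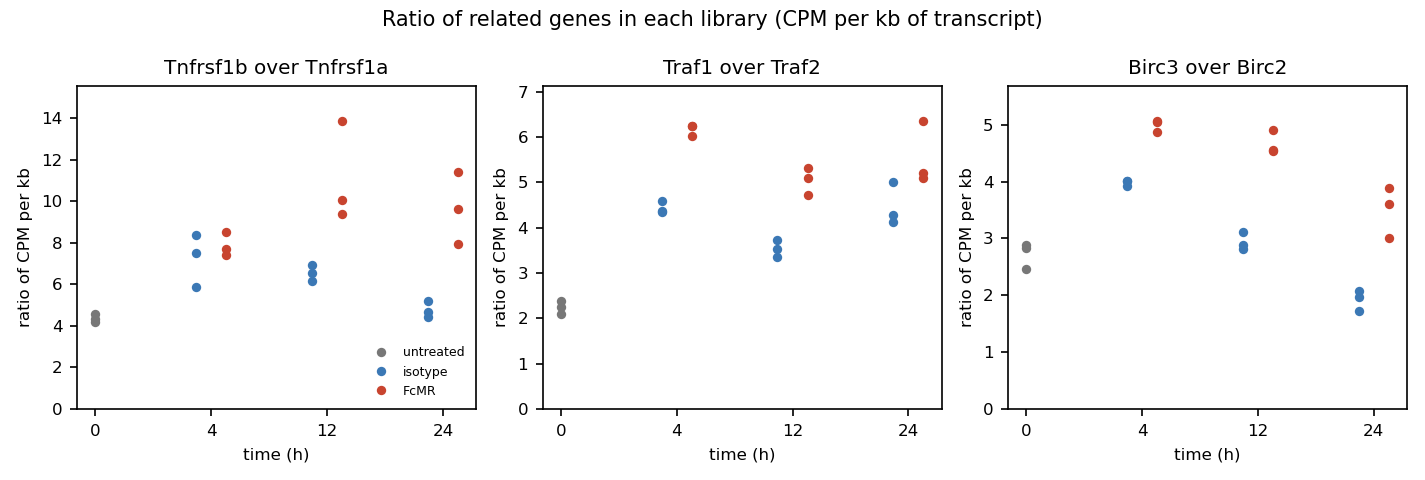
Ratio of Tnfrsf1b to Tnfrsf1a, Traf1 to Traf2 and Birc3 to Birc2 in each library, on CPM per kilobase, against time in hours. Points are single libraries, grey for untreated, blue for isotype and red for FcMR. In the panel of Birc3 over Birc2 the 3 red points lie above the 3 blue ones at each time, from 5.0 against 3.98 on average at 4 h to 3.50 against 1.93 at 24 h.

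Around these 10 genes, 101 others of the pathway were listed in 8 groups, also with earlier results of these data known. Of these 98 were found and 94 tested. Between FcMR and isotype, the calls at 4 h were 31 higher against 3 lower, those at 12 h 34 against 6, and those at 24 h 37 against 5. Of all genes tested 8.62%, 8.61% and 11.4% were called higher at these times and 9.13%, 7.49% and 9.44% lower, shares that also serve as the background of each list below. With the GC correction described above for Tnfrsf1a, 53 were called at 4 h in place of 34. Calls over all 13468 genes tested also rose with it, from 2390 to 3729.

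The list of 16 genes that TNF is known to induce through NF-κB had the highest median difference of the 8 lists at each time. Of these 12, 13 and 13 were called higher and 0 lower, with medians of 0.91, 1.03 and 1.43. Without Csf2, which had at most 3 counts in every library of 24 h, the last median was 1.36. At 4 h the median of the TNF superfamily ligands was close, at 0.85. With the GC correction it was the higher there, at 1.05 against 0.90. For the counts of 0 neither DESeq2 nor an unadjusted p under 0.05 gave any lower. Ptgs2, which encodes the inducible cyclooxygenase, went from 264 ± 26 CPM with isotype to 2399 ± 103 with FcMR at 4 h, by 3.18, and differed by 3.51 and 3.99 at 12 and 24 h (edgeR adjusted p 5.48e-09, 2.27e-09 and 4.46e-10). Il1a, for interleukin-1α, differed by 2.67, 3.43 and 2.99, reaching 4029 ± 271 CPM with FcMR at 4 h (edgeR adjusted p 1.44e-07, 9.11e-09 and 1.71e-08). Sod2, the mitochondrial superoxide dismutase, differed by 0.66, 1.15 and 2.19 (edgeR adjusted p 2.94e-05, 4.34e-08 and 1.13e-11). With isotype alone 8 of the 16 were called higher than in untreated cells at 4 h, and by 24 h 2 were higher and 12 lower. In these comparisons with untreated cells, 20.4% of all genes tested were called higher at 4 h. At 24 h 21.3% were called higher and 20.9% lower.

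Among 13 tested ligands of the TNF superfamily, 6, 5 and 6 were called higher with FcMR and 0, 2 and 3 lower, and at 4 h neither DESeq2 nor an unadjusted p under 0.05 gave any lower. Tnfsf15, for TL1A, was at 196 ± 26 CPM with isotype and 1109 ± 69 with FcMR at 4 h, and its difference shrank from 2.50 to 1.15 and 1.15 (joint edgeR adjusted p 0.00111). Tnfsf4, for the OX40 ligand, differed by 0.96, 0.71 and 1.67 and Tnfsf9, for the 4-1BB ligand, by 1.17, 1.70 and 1.26, each called at all times with edgeR adjusted p from 1.01e-06 to 0.00831, although Tnfsf4 was not called at 12 h without FcMR library 1 of that time (0.52, edgeR adjusted p 0.0649). Tnfsf13, for APRIL, was lower at 12 and 24 h, by −1.58 and −1.51 (edgeR adjusted p 0.00123 and 0.00120), from 36.5 ± 2.8 CPM with isotype to 13 ± 4.0 with FcMR at 24 h. It shares bases with the gene model Tnfsfm13, as does Tnfsf12.

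Of 18 tested receptors of the superfamily other than Tnfrsf1a and Tnfrsf1b, 1, 3 and 4 were called higher and 2, 3 and 2 lower, at 4 h shares near the 8.62% and 9.13% of all genes called higher and lower. Cd40, the receptor for T-cell help, differed by 1.79, 1.98 and 1.85 (edgeR adjusted p 5.00e-06, 1.01e-06 and 1.74e-06) and reached 1196 ± 174 CPM with FcMR at 4 h against 345 ± 108 with isotype. Fas, a death receptor, differed by 0.18 at 4 h and 0.98 at 24 h (edgeR adjusted p 0.361 and 1.35e-05), a change called by the joint test (edgeR adjusted p 0.0133) but not without FcMR library 2 or 3 of 4 h (edgeR adjusted p 0.0570 and 0.0598), with no expression filter (0.0735) or with the authors' factors (0.0539). With the GC correction Fas was also called at 4 h, by 0.33 (edgeR adjusted p 0.000251). Tnfrsf21, for death receptor 6, was lower at every time, by −0.35, −0.47 and −0.48 (edgeR adjusted p 0.00960, 0.000754 and 0.000544). At 4 h it was not called without isotype library 3 (edgeR adjusted p 0.0504) or FcMR library 3 (0.0932). That call was also lost with no expression filter (edgeR adjusted p 0.224), with the authors' factors (0.0546) and in the fit of the 6 libraries alone (0.123).

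Of 12 genes that edit ubiquitin chains on the receptor complex 1, 2 and 3 were called higher, at 4 h a share near that of all genes (8.62%), and 0 lower, with 0 lower also by DESeq2 and at an unadjusted p under 0.05. With the GC correction 6, 4 and 4 were called higher. Over all genes tested, those called higher then went from 1161 to 2307, from 1160 to 1897 and from 1541 to 2219. Tnfaip3, for the inhibitor A20, was called at every time, by 1.34, 1.26 and 0.75 (edgeR adjusted p 4.31e-09, 7.78e-09 and 1.54e-06), from 594 ± 26 to 1508 ± 110 CPM at 4 h, and its difference shrank (joint edgeR adjusted p 0.00273). The genes for HOIP, HOIL-1 and SHARPIN (Rnf31, Rbck1 and Sharpin), which build linear chains, were called at no time.

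Of 13 kinase genes 5, 4 and 3 were higher. Map3k8, for TPL2, differed by 0.87, 0.34 and −0.18, a change the joint test called (edgeR adjusted p 0.000488), and Mapkapk2, for MK2, by 0.70, 0.57 and 0.72 (edgeR adjusted p 0.000185, 0.00105 and 8.43e-05). In the caspase-8 and necroptosis branch 4 of 8 were higher at each time. Cflar, for the caspase-8 inhibitor c-FLIP, differed by 0.93, 1.3 and 1.01 (edgeR adjusted p 7.94e-06, 1.02e-07 and 1.20e-06), whereas Casp8 differed by 0.11, 0.12 and 0.24 and Fadd by −0.07, 0.33 and 0.45, neither called. Mlkl, the executioner of necroptosis, differed by 0.81, 0.71 and 0.43 (edgeR adjusted p 8.58e-05, 0.000186 and 0.0109), and Ripk3 by 0.01, −0.52 and −0.29, called lower at 12 h (edgeR adjusted p 0.0213) but not without any one of 4 of the 6 libraries of that time, with edgeR adjusted p of 0.0537 to 0.0998. Of the 8 other TRAF genes and TRAF binders 1, 2 and 3 were higher, among them Traf6 at 24 h by 0.62 (edgeR adjusted p 0.00113), while Traf5 differed by 0.36, 0.23 and 0.14 and was not called.

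**Figure D5:**
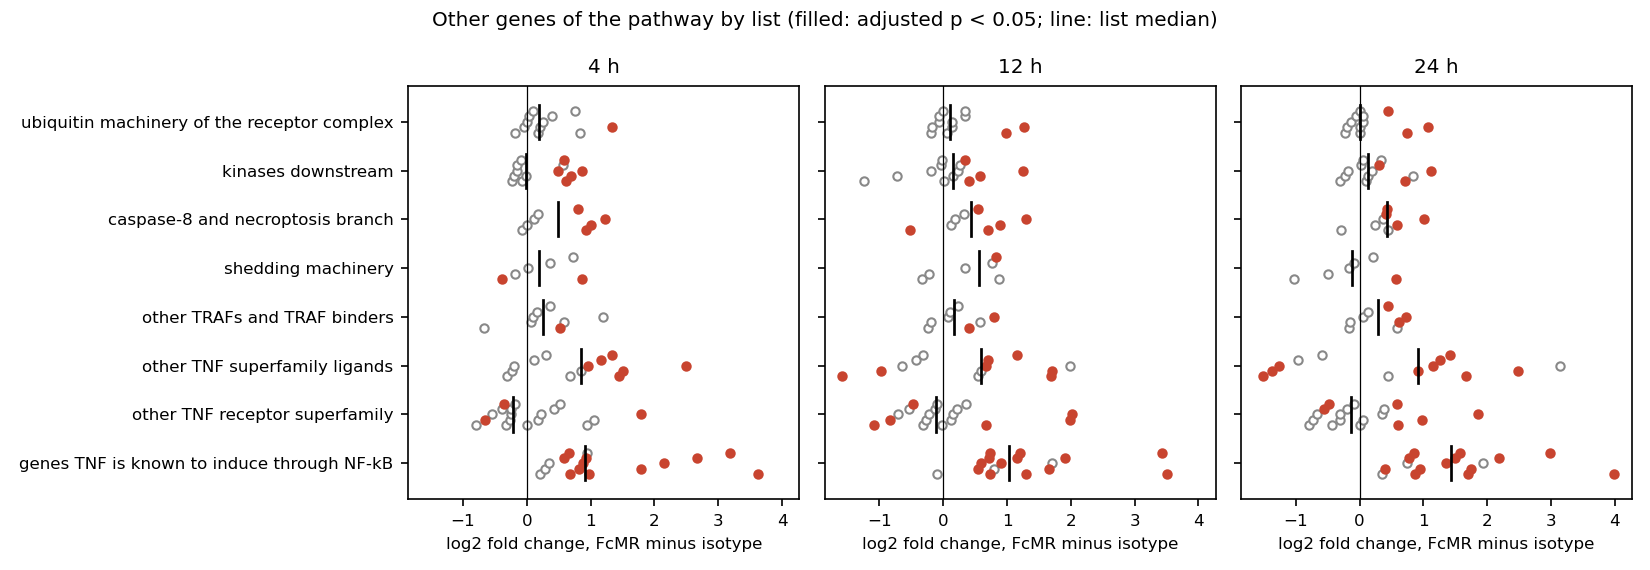
Log2 difference between FcMR and isotype for each of the 94 other pathway genes tested, in 8 lists, at 4, 12 and 24 h. Filled red points passed an adjusted p of 0.05, open points did not, and the black line in each row is the list's median. The bottom row, genes that TNF is known to induce through NF-κB, has medians of 0.91, 1.03 and 1.43 and no filled point below 0, and the row of TNF receptor superfamily genes has filled points on both sides.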

How the data were processed

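RNA of 21 libraries (7 groups of 3) had been sequenced single-end, per the labels' protocols. The authors deposited estimated counts per gene as whole numbers, and the submitters' processing notes name CASAVA 1.8.2, kallisto 0.44.0 and DESeq2, with the builds mm10 and GRCm38. A second deposited table holds a normalized signal, and was used only to derive the authors' scaling factors for an alternative. Sources used here do not say how transcripts were summed to genes or whether strand was used.

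Estimated counts were tested with edgeR 4.0.16 (R 4.3.3): filterByExpr with a minimum count of 10, TMM scaling, and a quasi-likelihood fit over all 7 groups, with Benjamini-Hochberg adjustment over 13468 genes. The joint test asked whether the FcMR effect differed between 4, 12 and 24 h. Levels are CPM on TMM-scaled library sizes, and log2 levels used a prior count of 2. The GC correction removed a lowess curve (span 0.5) over transcript GC from each library, for 13440 genes. Alternatives were RLE and the authors' factors, other filters, DESeq2 1.42.0, GC correction, a replicate block, fits of the 6 libraries compared, and leaving out single libraries. Symbols were given for 23206 of 23250 genes, and locations are from GENCODE M21.

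The members and the lists of pathway and marker genes were chosen with earlier results of these data known. Pathway genes were named by rule: per list and time, up to 2 called genes with the highest and 2 with the lowest log2 difference among those whose groups did not overlap. The genes of the closest likeness to Tnf are the 5 with the highest r. Other pathway genes that are named, such as Ltb, Sod2, Mlkl, Casp8, Fadd, Traf5, Rhbdf1, Rhbdf2, Frmd8, Timp3, Rnf31, Rbck1 and Sharpin, were chosen after their values were seen.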

Additional observations from a re-analysis of the deposited data

Results flagged for a closer look

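The effect of FcMR on Tnf differed between the times: 2.45 at 4 h, 1.74 at 12 h and 0.55 at 24 h on the log2 scale, with an edgeR adjusted p of 1.14e-06 in the joint test. All 27 alternatives called it, with adjusted p from 3.02e-36 to 7.62e-06. The effect on Adam17 differed in the other direction, with 0.07 at 4 and 12 h and 0.49 at 24 h and an edgeR adjusted p of 0.00483. That call held in 25 of 27 alternatives. It was lost with no expression filter (edgeR adjusted p 0.117) and with the GC correction (edgeR adjusted p 0.0558).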

How the results depend on the processing

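Of 1230 values of the 10 genes under alternatives, 1149 kept their side of the threshold. Of the rest, 61 passed it anew and 20 no longer passed it, and 0 reversed as calls. Among the 1149 were 76 that were uncalled in both fits and changed sign. Of the 10 genes, the number called between FcMR and isotype at 4 h went from 4 to 7 with the replicate block and GC correction together and to 2 in the fit of the 6 libraries alone. Between isotype and untreated at 24 h it went from 3 to 7 with GC correction, to 7 with the block added, and to 5 with 6 libraries. In the joint test it went from 2 to 1 with no expression filter, to 4 with the replicate block and GC correction, and to 4 without the 2 libraries that stand out of title order (FcMR replicate 1 of 12 h and isotype replicate 3 of 4 h). Leaving out 1 library at a time gave 3 to 5, 4 to 4 and 5 to 6 for FcMR, 6 to 7, 5 to 6 and 3 to 3 for isotype against untreated, and 2 to 4 in the joint test, with 4 reached without isotype replicate 3 of 4 h or FcMR replicate 3 of 24 h.

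Of 2394 values of named pathway genes 2220 kept their side of the threshold, 54 passed anew, 118 no longer passed and 2 reversed. Among the 2220 were 55 that were uncalled in both fits and changed sign. The 2 reversals were of Cflar in the joint test. Its change from 4 to 24 h, 0.09, became −0.12 with GC correction, and −0.12 with the replicate block and GC correction. The edgeR adjusted p of the joint test were 0.0167 and 0.0214, against 0.191 without correction. That test also covers the change from 4 to 12 h, so these p do not show that the change of −0.12 itself differs from 0. The cause was not tested. Among the 94 pathway genes 34 were called at 4 h, against 53 with GC correction and 55 with the block added.

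Over all genes, calls at 4 h went from 2390 to 3729 with GC correction, 3948 with the block added, 3898 without the 2 libraries out of title order, 868 with 6 libraries and 1589 without FcMR replicate 2 of 4 h. At 12 h they went from 2169 to 3406 and 3565 with GC correction without and with the block, and between isotype and untreated at 4 h from 4792 to 2881 with 6 libraries. Joint calls went from 1484 to 925 with no filter, 2972 and 3202 with GC correction without and with the block, and 2616 without the 2 libraries out of title order.

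Deviations of same-numbered libraries correlated at −0.071 to 0.106 on average, with single values from −0.166 to 0.338. These values were taken without the GC correction and cannot exclude that a replicate number marks a shared mouse or day. With the replicate block alone 4, 4 and 5 of the 10 genes were called for FcMR, 6, 5 and 3 for isotype, and 3 in the joint test. Depth limits the genes near 3 counts (0.045 to 0.542 CPM), such as Lta with isotype at 24 h.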
